A study of Mus musculus with 74 samples.

Results

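The *Cyp3a* genes were followed here through the RNA-seq and ChIP-seq data of mouse liver, in mice that lack a corepressor subunit or PPARα. 7 genes were taken by symbol, with earlier results of these data known: *Cyp3a11*, *Cyp3a13*, *Cyp3a16*, *Cyp3a25*, *Cyp3a41a*, *Cyp3a41b* and *Cyp3a44*. Of 14583 rows of the RNA-seq table, 5 carry these symbols, and in the 11 tables of ChIP-seq tags 434 of 743949 peaks have one of them as the nearest gene. *Cyp3a41a* and *Cyp3a41b* had no RNA-seq value in the table used and their transcripts were not analysed here. All 72 libraries used came from livers of C57BL/6 mice fed chow, aged 8 to 12 weeks by the labels. Knockout of *Gps2* (*Gps2* LKO) was made by crossing floxed *Gps2* with Alb-Cre, and the study describes it as hepatocyte-specific. Floxed mice of the same breedings served as WT. *Ncor* LKO and *Smrt* LKO mice are liver-specific knockouts of the corresponding corepressor, and *Ppara* KO is a whole-body knockout. Each ChIP library pools 2 to 4 immunoprecipitations at the purification step. The labels do not tie replicates to single animals, so p-values measure the spread between libraries. RNA-seq compared 4 WT with 4 *Gps2* LKO libraries. ChIP-seq compared 2 or 3 libraries per group, except for GPS2 and RNA polymerase II (PolII) in the *Gps2* line, with 1 per group, and antibodies against GPS2, NCOR, PPARα, PolII and the active histone marks H3K27ac and H3K4me3 were used.

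CYP3A enzymes are monooxygenases of the hepatocyte endoplasmic reticulum that oxidise steroids, bile acids and a large share of drugs, with electrons from the reductase encoded by *Por*. Their genes are textbook targets of the xenobiotic receptors PXR (*Nr1i2*) and CAR (*Nr1i3*), which bind DNA as heterodimers with RXRα. PXR recruits corepressors such as NCOR and SMRT when no ligand is present. GPS2 is a subunit of the NCOR and SMRT complexes, and PPARα is the fatty acid receptor of hepatocytes and another partner of RXRα. In mouse liver *Cyp3a11*, *Cyp3a13* and *Cyp3a25* are known to be expressed in both sexes, whereas *Cyp3a41a*, *Cyp3a41b* and *Cyp3a44* are known for female-biased expression in adults and *Cyp3a16* for expression in young animals.

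Libraries held 13.2 M to 20.1 M counted reads for RNA-seq and 7.9 M to 46.1 M tags for ChIP-seq (M, 1e+06). *Gps2* transcripts had 261, 251, 266 and 240 normalised counts in WT and 202, 157, 146 and 205 in *Gps2* LKO livers, a log2 fold change of -0.53 (SE 0.11, adjusted p = 0.0021, edgeR quasi-likelihood test), and GPS2 tags in peaks fell from 7.07% to 0.31% of all tags. The hepatocyte markers were all detected, and most markers of other liver cells were higher in LKO livers. Several ChIP libraries stood apart. The 3 WT libraries of PPARα in the *Gps2* line differed by no more than sampling noise (dispersion index 1.01, against 1.25 to 11.66 in the other groups) and were summed and counted as 1 sample. The WT replicate 3 of GPS2 in the *Ncor* line held 3.07% of its tags in peaks. In H3K27ac, all 6 libraries of the *Smrt* line had 0 tags in the 5 peaks of chromosome Y and 249 to 289 tags per 10000000 total tags (10M) at *Xist*, whereas the 6 libraries of the *Ncor* line had 306 to 371 and 2.93 to 4.92, although the study describes all mice as male. These are male-type values for the *Ncor* line and go against the stated sex for the *Smrt* line.

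6 of the 7 genes lie head to tail on the minus strand of a cluster on chromosome 5. In mm9, the build of the ChIP-seq peaks, the order along the chromosome is *Cyp3a16* (chr5:146197178-146230592), *Cyp3a41b* (chr5:146319544-146345599), *Cyp3a41a* (chr5:146505635-146531712), *Cyp3a44* (chr5:146585559-146617450), *Cyp3a11* (chr5:146666002-146691540) and *Cyp3a25* (chr5:146788770-146821194), while *Cyp3a13* (chr5:138334160-138362847) stands alone. Because ChIP-seq tags were kept only where they map uniquely, the share of 50-base windows that occur once within 1000 kb around the cluster limits what can be seen. It was 91.4% for *Cyp3a11*, 91.6% for *Cyp3a16*, 86.2% for *Cyp3a25* and 78.4% for *Cyp3a44*, but 19.4% for *Cyp3a41a* and 17.9% for *Cyp3a41b*, so that values of the last pair are a lower part of their signal and the split between them is uncertain. The names of the pair are mixed in the tables. Part of the peaks named *Cyp3a41a* have a distance that counts from the TSS of *Cyp3a41b* and lie upstream of that gene or within its body, which holds for 2 of 4 GPS2 peaks, 6 of 10 NCOR peaks and 6 of 11 PPARα peaks in the *Gps2* line and for 4 of 12 H3K27ac peaks in the *Ncor* and *Smrt* table. Such peaks are given here by the TSS their distance counts from.

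The promoters show how close the paralogs are. All 7 genes were matched by symbol in RefSeq (GRCm38.p6). The 180 bases before the transcription start site (TSS) are given 5′ to 3′ for 5 genes that span the family, because they show which letters the paralogs share. Capitals mark AGGTCA, a half-site of nuclear receptors, on either strand. They also mark the letters ATATAA, which TTATATAA holds on both strands with overlap.
Cyp3a11 promoter, chr5:145879855-145880034 (GRCm38.p6, minus strand): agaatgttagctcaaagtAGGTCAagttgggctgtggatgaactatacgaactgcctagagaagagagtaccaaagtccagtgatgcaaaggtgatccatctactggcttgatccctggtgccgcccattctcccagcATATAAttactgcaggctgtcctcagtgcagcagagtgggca
Cyp3a25 promoter, chr5:146009619-146009798 (GRCm38.p6, minus strand): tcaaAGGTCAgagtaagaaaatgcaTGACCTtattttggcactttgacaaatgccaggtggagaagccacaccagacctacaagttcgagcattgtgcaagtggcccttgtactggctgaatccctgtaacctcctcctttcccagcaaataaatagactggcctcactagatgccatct
Cyp3a16 promoter, chr5:145469724-145469903 (GRCm38.p6, minus strand): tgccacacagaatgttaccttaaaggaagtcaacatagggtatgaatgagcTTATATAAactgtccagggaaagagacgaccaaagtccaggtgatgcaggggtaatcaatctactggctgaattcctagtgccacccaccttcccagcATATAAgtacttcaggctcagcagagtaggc
Cyp3a41a promoter, chr5:145720137-145720316 (GRCm38.p6, minus strand): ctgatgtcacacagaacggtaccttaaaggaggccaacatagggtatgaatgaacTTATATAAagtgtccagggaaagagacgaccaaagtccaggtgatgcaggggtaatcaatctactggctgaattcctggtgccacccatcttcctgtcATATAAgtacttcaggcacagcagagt
Cyp3a44 promoter, chr5:145805875-145806054 (GRCm38.p6, minus strand): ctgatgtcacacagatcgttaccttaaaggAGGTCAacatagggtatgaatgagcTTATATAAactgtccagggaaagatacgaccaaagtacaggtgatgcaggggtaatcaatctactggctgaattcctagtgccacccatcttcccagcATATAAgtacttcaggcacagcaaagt

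Over 250 bases the promoters of *Cyp3a41a* and *Cyp3a41b* matched at 249 of 250 positions (99.6%), and *Cyp3a16*, *Cyp3a41a*, *Cyp3a41b* and *Cyp3a44* shared 93.9% to 99.6% of their aligned bases. *Cyp3a11* shared 83.7% with *Cyp3a16*, 79.4% with *Cyp3a25* and 72.0% with *Cyp3a13*. The letters AGGTCA were found once in *Cyp3a11* (first base at -162), once in *Cyp3a44* (-150) and at 2 positions in *Cyp3a25* (-176 and -155), but not in the other 4 promoters, against 14.0% of all 32851 promoters of this length. Nearest the TSS, ATATAA began at -42 in *Cyp3a11*, at -31 in *Cyp3a16* and at -27 in *Cyp3a41a*, *Cyp3a41b* and *Cyp3a44*. Farther up it began at -188 in *Cyp3a25*, at -129 and -127 in *Cyp3a16* and at -125 and -123 in *Cyp3a41a*, *Cyp3a41b* and *Cyp3a44*. *Cyp3a13* lacked it, and 9.1% of all promoters hold it within the 250 bases. Neither AGGNCANAGGNCA, the spacing used by PPARα with RXRα, nor TTCNNNGAA, the core of a STAT site, was found in any of the 7, against 0.338% and 7.02% of all promoters (both strands searched).

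In the *Gps2* line 30 GPS2 peaks of 137 bp were assigned to the 7 genes, and 7 of them sat on 2 recurring stretches of related DNA (at least 80 aligned bases and 90% identity). In 4 of them the same stretch recurred, in intron 7 of *Cyp3a16*, *Cyp3a11* and *Cyp3a44* and in an intergenic position at -50681 bp from the *Cyp3a41b* TSS, which the table names *Cyp3a41a*. The sequences are shown on the plus strand with AGGTCA or its complement TGACCT in capitals, because the same stretch carried a GPS2 peak at 4 places.
Upstream of Cyp3a41b -50681, chr5:146396212-146396348 (mm9, plus strand): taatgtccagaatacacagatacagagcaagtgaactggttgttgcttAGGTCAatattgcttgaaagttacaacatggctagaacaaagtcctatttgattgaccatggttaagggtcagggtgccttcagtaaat
Cyp3a44 +12444, chr5:146604938-146605074 (mm9, plus strand): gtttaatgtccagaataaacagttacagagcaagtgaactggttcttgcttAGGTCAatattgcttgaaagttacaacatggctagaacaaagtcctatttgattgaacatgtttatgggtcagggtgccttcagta
Cyp3a11 +12214, chr5:146679148-146679284 (mm9, plus strand): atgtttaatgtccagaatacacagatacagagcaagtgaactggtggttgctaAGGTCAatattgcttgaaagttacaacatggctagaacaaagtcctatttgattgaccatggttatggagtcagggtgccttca
Cyp3a16 +15138, chr5:146215386-146215522 (mm9, plus strand): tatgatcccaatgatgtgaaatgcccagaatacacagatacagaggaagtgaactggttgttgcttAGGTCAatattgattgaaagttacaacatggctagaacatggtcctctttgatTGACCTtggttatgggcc

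The site upstream of *Cyp3a41b* was 97.7% identical to that of *Cyp3a11*, 95.5% to that of *Cyp3a44* and 93.1% to that of *Cyp3a16* over the aligned bases, and AGGTCA was present in all 4. WT livers had 45.2, 16.8, 26.5 and 20.6 GPS2 tags per 10M at the site upstream of *Cyp3a41b* and those of *Cyp3a11*, *Cyp3a44* and *Cyp3a16*. H3K27ac differed far more between these sites. In WT livers of the *Ncor* line the H3K27ac peak over the *Cyp3a11* site had 214 tags per 10M and those over the others 10.3 (upstream of *Cyp3a41b*), 12.3 (*Cyp3a44*) and 3.3 (*Cyp3a16*). Peak widths differ, so these are totals over the peak and not densities. A second recurring stretch lay in intron 3 of *Cyp3a44* and *Cyp3a41b* and upstream of *Cyp3a41b*, with pairwise identities of 93.9% to 97.6%, and had 28.4, 6.45 and 10.3 GPS2 tags per 10M.
Cyp3a44 +5474, chr5:146611908-146612044 (mm9, plus strand): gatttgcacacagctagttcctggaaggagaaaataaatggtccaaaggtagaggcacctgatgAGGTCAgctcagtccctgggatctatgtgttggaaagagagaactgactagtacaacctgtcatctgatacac
Cyp3a41b +5520, chr5:146340011-146340147 (mm9, plus strand): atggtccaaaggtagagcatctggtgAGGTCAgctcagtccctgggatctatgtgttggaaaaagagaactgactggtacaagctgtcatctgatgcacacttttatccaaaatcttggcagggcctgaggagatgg
Upstream of Cyp3a41b -57683, chr5:146403214-146403350 (mm9, plus strand): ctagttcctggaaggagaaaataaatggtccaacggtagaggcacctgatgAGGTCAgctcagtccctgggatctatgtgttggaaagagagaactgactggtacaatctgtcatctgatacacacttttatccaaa
The peak with the most GPS2 tags of the family, upstream of Cyp3a25, holds neither AGGTCA nor its complement.
Cyp3a25 -11710, chr5:146832836-146832972 (mm9, plus strand): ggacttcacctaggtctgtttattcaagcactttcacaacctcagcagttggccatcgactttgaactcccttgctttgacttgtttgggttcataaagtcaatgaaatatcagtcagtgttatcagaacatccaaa

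Over the 30 GPS2 peaks, AGGTCA or its complement occurred in 9 (30.0%), against 23.9% of 48910 GPS2 peaks of the same length. AGGNCANAGGNCA occurred in 0, against 1.45%, and TTCNNNGAA in 3 (10.0%), against 5.16%. All 30 overlapped NCOR peaks in the table of the *Gps2* line (85.7% of all GPS2 peaks), and 29 overlapped PPARα peaks (87.8% of all). A H3K27ac peak in the table of the *Gps2* line lay over 18 of them (60.0%), against 92.5% of all GPS2 peaks, and one of the table of the *Ncor* and *Smrt* lines over all 30, against 89.5%. Some of the latter H3K27ac peaks held few tags in *Ncor* WT livers. The one over the *Cyp3a41b* site at 5520 bp had 1.22 tags per 10M there, and the one over the *Cyp3a44* site at -5759 had 0.855. How many were listed only through *Smrt* libraries was not tested.

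RNA-seq compared WT with *Gps2* LKO livers. *Cyp3a44* and *Cyp3a13* were higher in LKO livers, by 1.77-fold and 1.16-fold, and *Cyp3a11* and *Cyp3a25*, the abundant members, did not pass the test. Thus 2 of 4 members tested were higher and 0 lower, in a comparison in which 23.4% of all 12220 genes tested were higher and 21.4% lower (edgeR quasi-likelihood test, adjusted p under 0.05 by Benjamini-Hochberg over all of them). Outside the 7 genes followed here, *Cyp3a59* was also higher, with 356 ± 18 normalised counts in WT and 519 ± 40.9 in LKO livers (SD, n = 4). Its log2 fold change was 0.54 (SE 0.08, adjusted p = 1.5e-04, edgeR). *Cyp3a57* had 3 to 6 reads per WT library and 1 to 4 per LKO library and was not tested. Levels per length spread widely in WT livers. *Cyp3a11* had an RPKM (reads scaled to exon length and library size) of 1250 ± 47.7 (SD, n = 4), rank 41 among all genes, *Cyp3a25* 228 ± 6.93, *Cyp3a13* 55.8 ± 1, *Cyp3a44* 0.859 ± 0.129 and *Cyp3a16* 0.166 ± 0.027. Neighbours in this order did not overlap between libraries in either group.

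*Cyp3a11*, the main drug-metabolising CYP3A of mouse liver, had 39700, 39900, 40600 and 43100 normalised counts in WT against 44900, 39100, 39300 and 45400 in the LKO group. The groups overlapped, with a log2 fold change of 0.05 (SE 0.06, adjusted p = 0.576). *Cyp3a25* had 7060, 7090, 7380 and 7510 against 7920, 6810, 6200 and 7960, a log2 fold change of -0.01 (SE 0.08, adjusted p = 0.939). For both genes the LKO libraries spread to either side of the WT libraries. *Cyp3a13*, the member outside the cluster, had 2580, 2670, 2650 and 2580 against 3150, 2860, 2910 and 3250 (log2 fold change 0.21, SE 0.06, adjusted p = 0.0105). All 4 LKO libraries were above all WT libraries. This call was lost with scaling to total counts (log2 fold change 0.03, adjusted p = 0.655), which moved the median of all genes from 0.03 to -0.15, and the calls over all genes from 2856 higher and 2621 lower to 1561 higher and 4632 lower. Under that scaling *Cyp3a11* was at -0.14 (adjusted p = 0.0461) and *Cyp3a25* at -0.19 (adjusted p = 0.0364).

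*Cyp3a44*, female-biased in adult liver, had 21.7, 31.2, 25.9 and 28.3 normalised counts in WT and in the LKO group 43.9, 59.8, 41.4 and 44.5. No LKO library fell within the WT range, and the log2 fold change of 0.84 (SE 0.18, adjusted p = 0.00262) rests on 22 to 33 reads per WT library and 34 to 74 per LKO library. *Cyp3a44* stayed called when each library was left out in turn (0.66 to 0.92). *Cyp3a16* had 3.94, 4.72, 5.55 and 4.05 against 1.19, 5.66, 3.94 and 3.93, which is 1 to 7 reads per library, and did not reach the count needed for a test. How the counting split reads between near-identical paralogs is not given in the sources used here, so the low counts of *Cyp3a44* and *Cyp3a16* are uncertain.

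**Figure D1:**
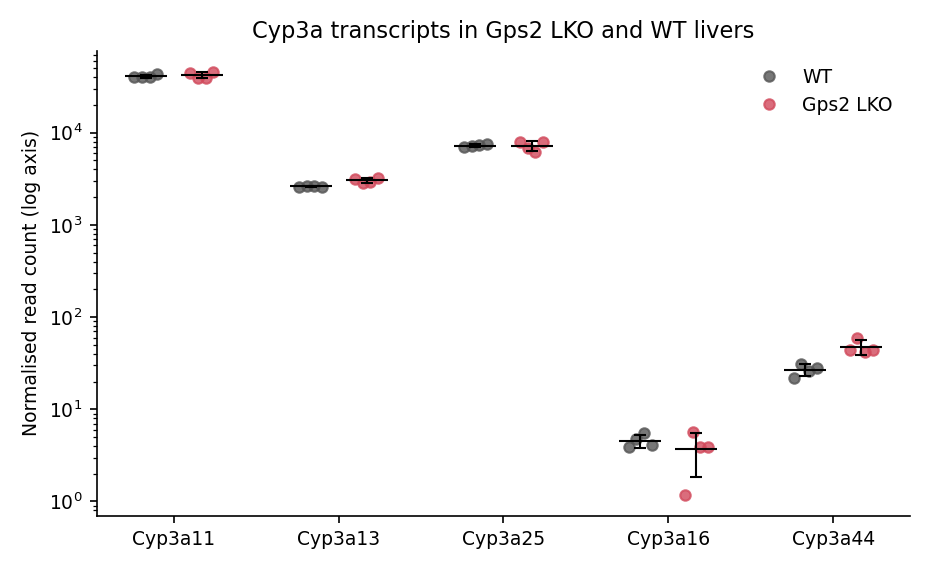
Normalised counts (TMM, log axis) of the 5 *Cyp3a* members in 4 WT (grey) and 4 *Gps2* LKO (red) libraries, with points for libraries and bars for mean ± SD. *Cyp3a44* and *Cyp3a13* separate by group, while *Cyp3a11*, *Cyp3a25* and *Cyp3a16* overlap.

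The genes around the family were counted from lists of textbook regulators and targets. Of 20 regulators and partners, 8 were higher, 6 lower and 6 did not pass the test, with a median log2 fold change of 0.02 against 0.03 over all genes. *Nr1i2* (PXR) was higher, with 1100 ± 33.5 normalised counts in WT and 1320 ± 50.1 in LKO livers (SD, n = 4; 0.26, SE 0.06, adjusted p = 0.00376 by edgeR). *Nr1i3* (CAR) was higher as well, with 1750 ± 51 and 2420 ± 208 (0.47, SE 0.07, adjusted p = 1.35e-04). Their partner *Rxra* was lower (-0.26, adjusted p = 0.0124), as was *Hnf4a*, the master factor of hepatocyte genes (-0.41, adjusted p = 2.81e-04). The electron donors *Por* (0.58) and *Cyb5r3* (0.49) were higher, both at an adjusted p of 6.52e-06. With scaling to total counts 7 of the 20 were higher and 10 lower (median -0.17). *Nr1i2* then did not pass (0.08, adjusted p = 0.285, edgeR), while *Nr1i3* stayed higher (0.29, adjusted p = 0.00679). With the trend of counts with gene length removed, *Rxra* did not pass (-0.09, adjusted p = 0.0769).

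Of 26 other PXR and CAR target genes tested, 15 were higher, 5 lower and 6 did not pass, with a median of 0.34. *Cyp2c29* (1.24), *Cyp2c54* (1.33) and *Gstm3* (1.21), which encode drug-metabolising enzymes, led the higher ones, and *Ces2a* (-0.89), *Gstp1* (-0.95) and *Ugt2b35* (-0.48) the lower ones. With total counts 12 were higher and 10 lower. Of 15 male-biased genes of liver, 14 were lower (median -0.95). Of 18 female-biased genes 14 reached the count needed for a test and all 14 were higher. Genes near 0 in WT, such as *Cyp2b9* with 1 to 3 WT reads, reached that count only through the LKO libraries, so the filter partly fixes this count. *Cux2*, a female-biased repressor that was on both lists, went from 5.41 ± 3.55 to 242 ± 51.3 normalised counts (log2 fold change 5.49), and *Bcl6*, a male-biased repressor, from 1380 ± 54.4 to 382 ± 43.7 (-1.85). *Cyp2b9* (8.74) and *Cyp2a4* (8.51) exceeded the 0.84 of *Cyp3a44* by far. The lists were chosen with earlier results of these data known and their counts describe only these libraries. The Y-linked genes were expressed in both groups, with *Eif2s3y* at 961 ± 41.4 and 1040 ± 101, and *Xist* was at 2.93 ± 1.44 and 4.86 ± 8.67 normalised counts.

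Of 12 hepatocyte genes of the central vein, 6 were higher and 3 lower (median 0.09), and of 12 portal genes 7 were higher and 1 lower (median 0.32). Markers of other cells were higher in LKO livers. Of 8 Kupffer cell and macrophage markers 7 were higher (summed 2210 to 2290 normalised counts in WT, 2930 to 3410 in LKO), and of 8 stellate cell markers 8 (3010 to 3130, and 5610 to 5800). Of 5 cholangiocyte markers tested 3 were higher (1020 to 1090, and 1450 to 1770), and of 7 endothelial markers 3 (2160 to 2280, and 2430 to 2590), and no marker on these lists was at 0 in all libraries. Hepatocyte markers were higher in 5 of 10 cases and lower in 2. With scaling to total counts 4 of the Kupffer cell markers, 8 of the stellate, 3 of the cholangiocyte and 0 of the endothelial markers were higher, and the central vein genes had 2 higher and 6 lower. In whole liver, a change in the number of cells of a type and a change of RNA per cell cannot be told apart, and the part of the other cells in the *Cyp3a* values was not tested.

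The genes whose levels followed each member most closely over the 8 libraries were *Otc* (Pearson r = 0.98) and *Ginm1* (0.958) for *Cyp3a11*, *Nudt18* (0.986) and *Xrcc5* (0.983) for *Cyp3a13*, *Tm7sf3* (0.972) and *Cpq* (0.966) for *Cyp3a25*, and *Ehhadh* (0.986) and *Arhgap18* (0.985) for *Cyp3a44*. These are the highest of 8558 genes over libraries that share the same 2 genotypes, and are given as a description.

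H3K27ac was higher over *Cyp3a11* and *Cyp3a25*, and H3K4me3 over *Cyp3a11*, in *Gps2* LKO livers. Of 22 member peaks in the H3K27ac table, 11 were peaks of that mark in at least 2 of the 4 libraries and were tested, and 4 were called higher and 0 lower, against 1.21% higher and 0.212% lower over all 47108 peaks tested. The median log2 fold change of the 11 was 0.68 and that of all peaks 0.06. The peak over the *Cyp3a11* promoter and gene (chr5:146672861-146695365 in mm9) had 586 and 565 tags per 10M in WT and 843 and 1040 in LKO livers (log2 fold change 0.71, SE 0.11, adjusted p = 0.0294, edgeR, 2 libraries per group). The peak at -20855 had 310 and 343 against 509 and 634 (0.81, SE 0.12, adjusted p = 0.0260, and 0.0504 with TMM scaling). In both peaks each LKO library was above each WT library.

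Over the *Cyp3a25* gene, H3K27ac had 376 and 358 tags per 10M against 538 and 634 (0.68, SE 0.1, adjusted p = 0.0267), and upstream at -9640 it had 205 and 177 against 335 and 396 (0.94, SE 0.12, adjusted p = 0.0168). These 2 peaks also separated by group, although the transcript of *Cyp3a25* did not pass the test. *Cyp3a13* had 488 and 494 against 618 and 564 (0.27, adjusted p = 0.181). Summed over all member peaks, H3K27ac was 1.64-fold higher for *Cyp3a11* (1070 and 1070 against 1580 and 1920) and 1.64-fold for *Cyp3a25* (679 and 599 against 970 and 1130). *Cyp3a44* carried few tags per 10M, 10.4 and 7.15 against 26.7 and 19.4, and its tested peak at 12210 bp had 4.8 and 2.72 against 15.0 and 10.2 (1.75, SE 0.38, adjusted p = 0.0783). *Cyp3a16* had 1 peak at or near 0 and the 2 *Cyp3a41* genes none. With only 2 libraries per group no member call survived leaving out either WT library, when 0 peaks of all (without WT replicate 1) or 1 higher and 2 lower (without WT replicate 2) were called. Leaving out an LKO library gave 5 member calls, with 1908 higher and 1098 lower over all peaks without LKO replicate 1 and 1498 and 198 without LKO replicate 2, fits that take the spread of the remaining pair for the lone library too.

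H3K4me3, a mark of active promoters, gave 1 of 4 member peaks called higher (0.798% higher and 0.118% lower of all 22814 peaks tested). It was the *Cyp3a11* peak, with 711 and 558 tags per 10M in WT and 1080 and 977 in LKO livers (log2 fold change 0.69, SE 0.09, adjusted p = 0.00281, edgeR). *Cyp3a25* had 396 and 300 against 467 and 420 (0.35, adjusted p = 0.304), and *Cyp3a13* 545 and 383 against 584 and 479 (0.19, adjusted p = 0.818), with overlapping groups. The median of the 4 was 0.52 and that of all peaks 0.04. The call was lost when all peaks of the shared table were tested.

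PolII, with 1 library per group and no replicate check, did not differ by the 2-fold taken here at any of 8 member peaks, against 7.57% of all peaks higher and 5.07% lower past that fold. The promoter peak of *Cyp3a11* had 216 tags per 10M in WT and 210 in LKO livers (log2 ratio -0.04), that of *Cyp3a13* 211 and 225 (0.09) and that of *Cyp3a25* 130 and 126 (-0.05). The 5 peaks of *Cyp3a25* summed to 356 and 340. *Cyp3a16*, *Cyp3a41a*, *Cyp3a41b* and *Cyp3a44* had no PolII peak.

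GPS2 signal at the family was far lower in *Gps2* LKO liver, as at almost all peaks of the table. All 30 member peaks were past 2-fold lower, against 99.5% of 49018 peaks, with a median log2 ratio of -4.37 (all peaks -4.13). With 1 library per group the values compare these libraries only. The *Cyp3a25* peak at -11710 had 76.8 tags per 10M in WT (95% Poisson interval 63.6 to 91.9) and 3.38 in LKO liver (1.1 to 7.89), and ranked at percentile 99.8 of all GPS2 peaks. The *Cyp3a25* promoter peak at -70 had 47.1 (36.9 to 59.2), from 73 tags, and 0 tags in LKO liver, where 3 tags would be 2.03 per 10M. The *Cyp3a11* promoter peak at -15 was weak, with 7.1 (3.54 to 12.7) and 1.35 (0.164 to 4.88), and its largest peak at -23647 had 28.4 and 0.676.

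The paralogs with little H3K27ac carried GPS2 all the same. The site at -50681 from *Cyp3a41b* had 45.2 tags per 10M (percentile 97.6), *Cyp3a16* 39.4 at 38555 bp (percentile 96.1) and *Cyp3a44* 28.4 at 5474 bp, and the LKO library had 0.676, 2.7 and 0.676. *Cyp3a13* had 31.0 and 1.35 at -791. Summed over peaks, WT GPS2 was 179 tags per 10M at *Cyp3a25*, 164 at *Cyp3a11*, 106 at *Cyp3a16*, 81.3 at *Cyp3a44*, 62 at *Cyp3a41b*, 56.8 at *Cyp3a13* and 27.8 at *Cyp3a41a*, with different numbers of peaks. By the names of the table the pair would have 6.45 and 83.2. Intervals cover counting error only.

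**Figure D2:**
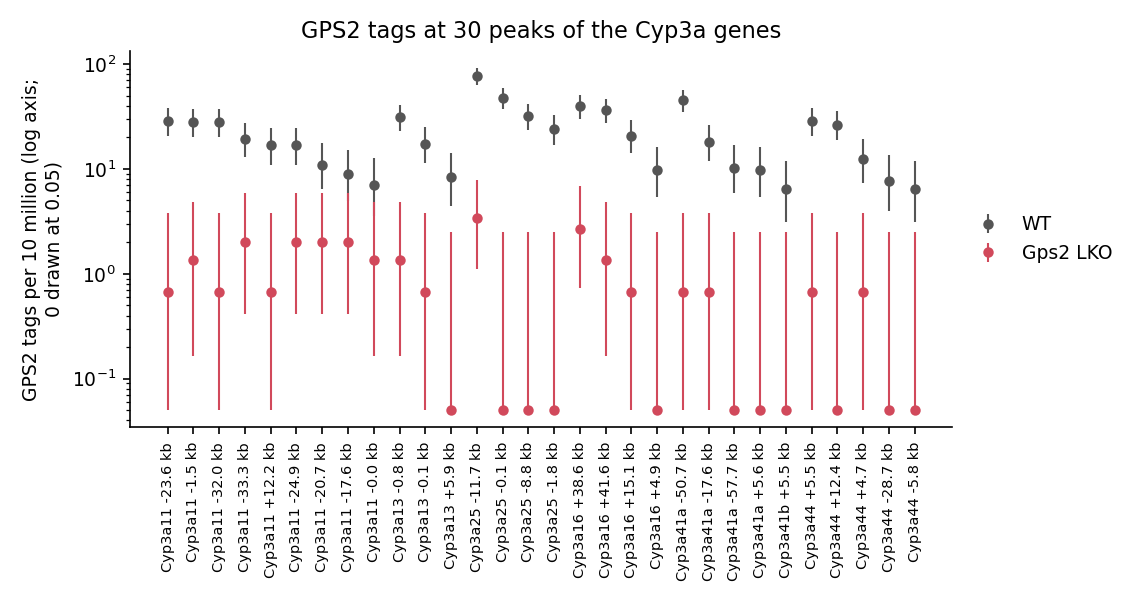
GPS2 tags per 10M with 95% Poisson intervals at each of the 30 *Cyp3a* GPS2 peaks in 1 WT and 1 *Gps2* LKO library, on a log axis with values and bounds under 0.05 drawn at 0.05. Each WT value lies above its LKO value, and the WT values run from 6.45 within *Cyp3a41b* to 76.8 upstream of *Cyp3a25*. Names and distances are as in the table, and the 2 farthest peaks named *Cyp3a41a* count from the *Cyp3a41b* TSS.

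In the *Ncor* line GPS2 at the family was lower in LKO on average but no peak passed the test. Of 33 member peaks 0 were called (background 0.0338%, all lower), 17 were at an unadjusted p under 0.05, and DESeq2 called 10 lower, with 9847 lower and 5 higher of all 56278 peaks. The median log2 fold change was -1.26, close to the -1.12 of all peaks, and with TMM scaling both were near 0 (-0.17 and -0.04). The *Cyp3a25* peak at -98 had 64.7, 52.4 and 19.8 tags per 10M in WT and 9.36, 11.2 and 9.35 in LKO livers (-2.18, adjusted p = 0.0761, edgeR, 3 libraries per group), and the one at -11742 had 96.2, 59.9 and 22 against 16.3, 11.8 and 10.9. The third WT library, with 3.07% of tags in peaks against 7.82% to 8.23% in the other WT libraries and 2.45% to 3.15% in LKO, was the lowest WT value in both. Without it 29 of the 33 peaks were called, 28 lower and 1 higher, and so were 33248 lower and 224 higher of all 56277 peaks.

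In *Ppara* KO livers GPS2 showed 0 of 24 member peaks called (background 0.273%, all lower, and 8 of the 24 at an unadjusted p under 0.05), with a median of -0.90 against -0.93 over all peaks and 0.00 against 0.01 with TMM. *Cyp3a44* at 5411 bp had 25, 20.8 and 36.9 tags per 10M in WT and 17.5, 8.32 and 3.61 in KO livers (-1.48, adjusted p = 0.158, edgeR), and *Cyp3a25* at -11729 had 31.9, 23.4 and 42.3 against 21.8, 18.9 and 11.5 (-0.9, adjusted p = 0.262). No KO library reached the WT range at these peaks.

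PPARα at peaks of all 7 genes was higher in *Gps2* LKO than in WT livers, relative to total tags, as was the median of all peaks. With the 3 WT libraries summed as 1 sample against 3 LKO libraries, 33 of 63 member peaks were called higher and 0 lower, against 21.5% and 0.147% of all 102519 peaks. The median log2 fold change was 0.90, that of all peaks 0.62. Of the 26 peaks at the 4 paralogs 21 were called (median 1.15), and of the 37 peaks at *Cyp3a11*, *Cyp3a13* and *Cyp3a25* 12 were called (median 0.74). The difference between these sets was not tested. Within the second set, *Cyp3a11* had 10 of 19 peaks called (median 1.1), *Cyp3a13* 1 of 4 (median 0.38) and *Cyp3a25* 1 of 14 (median 0.57). The medians of *Cyp3a13* and *Cyp3a25* lay below the 0.62 of all peaks. The share of tags in peaks was 19.2% to 21.9% in WT and 28.9% to 32.1% in LKO libraries, and its part in these calls was not tested. With TMM scaling, which brought the median of all peaks to 0.02 and that of the members to 0.30, only 2 member peaks were called, at *Cyp3a16* (35823 bp) and upstream of *Cyp3a41b* (-57677).

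The *Cyp3a11* peak at -137, at its promoter, had 34.2, 23.7 and 36.1 tags per 10M in the WT libraries and 83.9, 79.6 and 82.1 in LKO livers (1.41, SE 0.26, adjusted p = 2.41e-05, edgeR, WT summed). All LKO libraries were more than 2-fold above each WT library. At the *Cyp3a44* promoter (-120) the values were 2.53, 0 and 3.38 against 12.6, 14.2 and 12.9 (2.80, SE 0.63, adjusted p = 5.34e-04), and at *Cyp3a16* (35823 bp) 0, 2.85 and 1.13 against 16.1, 14.2 and 19.3 (3.46, adjusted p = 4.75e-06). The peak upstream of *Cyp3a41b* at -57677, over the second recurring stretch, had 11.4, 9.5 and 9.02 against 32.2, 46.4 and 31.1 (1.86, adjusted p = 2.86e-05), and the related one within *Cyp3a41b* at 5584 bp had 17.7, 11.4 and 9.02 against 40.2, 44.5 and 41.0 (1.74, adjusted p = 3.05e-05). The sites with few WT tags rest on small counts and may have been listed only through the LKO libraries. That would partly fix their fold changes and calls, and was not tested. *Cyp3a25* at -146 had 84.8, 97.8 and 94.7 against 139, 142 and 114 (0.49, adjusted p = 0.128) and *Cyp3a13* at -198 had 40.5, 57.9 and 48.5 against 63.2, 70.1 and 75.6 (0.5, adjusted p = 0.123).

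**Figure D3:**
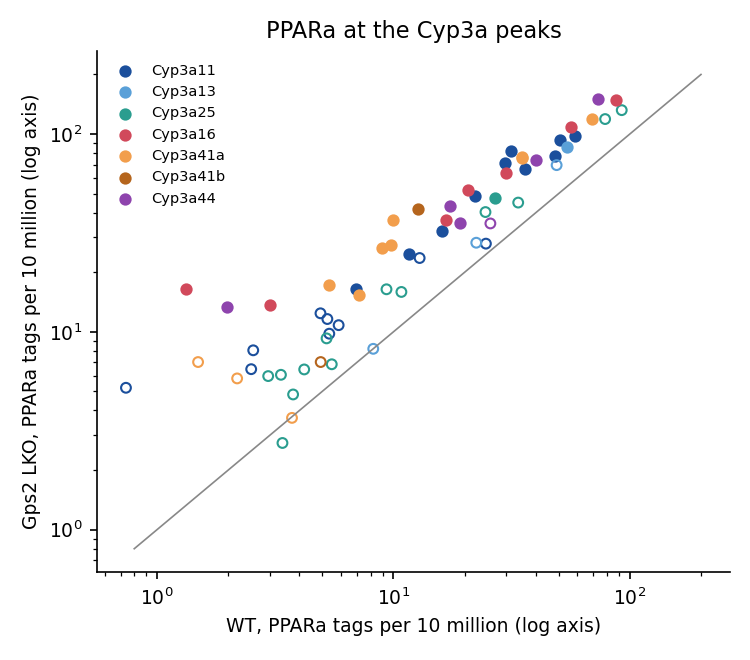
Mean PPARα tags per 10M in WT (horizontal) and *Gps2* LKO livers (vertical) at the 63 *Cyp3a* peaks, on log axes, with the line of equality. Most points lie above the line, and 33 of the 63 passed the test.

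In *Ppara* KO livers, with 2 libraries per group, 14 of 35 member peaks were lower and 0 higher, against 27.6% lower and 0.0174% higher over all peaks. The median of the members was -1.66, that of all peaks -1.68. *Cyp3a44* at 5515 bp had 19.8 and 15.3 tags per 10M in WT and 0.687 and 0.733 in KO livers (-4.47, SE 0.61, adjusted p = 8.5e-05, edgeR), and *Cyp3a16* at 38557 bp 18.4 and 15.3 against 1.37 and 1.47 (-3.49, SE 0.54, adjusted p = 2.13e-04). *Cyp3a11* at -33323 had 15.6 and 10.7 against 0 and 0.733 (-4.9, adjusted p = 4.67e-04), whereas its promoter peak at -85 had 3.54 and 0.765 against 0.687 and 1.47 (-0.99, adjusted p = 0.476). Tags were few in this table. The count was 0 without either WT library and 9 without either KO library, 8 with DESeq2 and 2 with TMM scaling, and 0, as over all 40241 peaks, with a replicate block.

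In *Ncor* LKO livers PPARα had 0 of 57 member peaks called (background 0.151% higher and 0.0453% lower, with 11 of the 57 at an unadjusted p under 0.05). The median was 0.54 against 0.10 over all peaks. *Cyp3a16* at 4829 bp had 26.5, 15.5 and 9.99 against 33.6, 33.6 and 43.2 (1.09, adjusted p = 0.872, edgeR), and *Cyp3a11* at -137 had 30.2, 43.2 and 12.8 against 29.1, 25.6 and 46.8 (0.24). The WT replicate 3 was the lowest WT value in both and had 8.96% of its tags in peaks, against 14.7% to 21.1% in the other libraries. With TMM scaling 6 peaks were called.

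NCOR at the family gave few calls. In *Gps2* LKO livers 0 of 54 member peaks were called (background 0.0124% higher and 0.00495% lower, with 4 of the 54 at an unadjusted p under 0.05 by edgeR), with a median of 0.22 against -0.03 over all peaks. At *Cyp3a16*, *Cyp3a41a*, *Cyp3a41b* and *Cyp3a44*, 25 of 28 peaks had a value above 0 (median 0.48), and at *Cyp3a11*, *Cyp3a13* and *Cyp3a25* 10 of 26 (median -0.09). The difference between these sets was not tested, and peaks are not replicates. Without LKO replicate 2, 23 of the 54 values were above 0 (median -0.08, all peaks -0.27). Without LKO replicate 3, 44 were above 0 (median 0.43, all peaks 0.19). *Cyp3a41b* at 5366 bp had 2.26, 1.09 and 2.32 tags per 10M in WT and 3.75, 9.25 and 5.97 in LKO livers (1.69, adjusted p = 1). The recurring site upstream of *Cyp3a41b* (-50659) had 95.9, 103 and 81.2 against 102, 122 and 74.9 (0.09). The groups overlapped there.

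In *Ppara* KO livers 1 of 59 member peaks was lower for NCOR (background 2.51% lower and 0.136% higher), and the median of -0.26 lay by the -0.32 of all peaks. The peak was at *Cyp3a16*, 41900 bp past its TSS, with 13, 28.4 and 41.3 tags per 10M in WT and 11.4, 8.08 and 7.83 in KO livers (-1.59, SE 0.37, adjusted p = 0.00231, edgeR). The call was lost without WT replicate 3 and with DESeq2. At *Cyp3a25* (-11720) the values were 163, 176 and 172 against 165, 150 and 127 (-0.21, adjusted p = 0.539), and at the *Cyp3a44* peak at 12447 bp, one of the recurring sites, 108, 90.3 and 113 against 84.2, 81.5 and 54.1 (-0.5, adjusted p = 0.16).

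H3K27ac was also measured in *Ncor* and *Smrt* LKO livers, with 3 libraries per group and 49 member peaks. In *Ncor* LKO livers 2 peaks were called higher and 0 lower, against 2.32% higher and 0.801% lower over all peaks, with a median of 0.24 (all peaks 0.00). Both lay upstream of *Cyp3a11*. The peak at -21895 had 461, 490 and 550 tags per 10M in WT and 630, 820 and 874 in LKO livers (0.63, SE 0.13, adjusted p = 0.0309, edgeR), and the peak at -31315 had 204, 216 and 271 against 301, 386 and 387 (0.63, SE 0.14, adjusted p = 0.04). Every LKO library was above every WT library at both. At the *Cyp3a11* promoter peak (934 bp) the groups overlapped, with 513, 558 and 627 against 565, 652 and 655 (0.14, adjusted p = 0.627). *Cyp3a25* at -992 had 873, 932 and 1310 against 1380, 1590 and 1480 (0.51, adjusted p = 0.0942). The count was 0 without WT replicate 1, WT replicate 2, LKO replicate 2 or LKO replicate 3, 1 without WT replicate 3 and 4 without LKO replicate 1.

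*Cyp3a44* summed to 28.9 ± 5.99 tags per 10M in WT and 62.9 ± 33.2 in *Ncor* LKO livers (SD, n = 3), where the LKO libraries had 37.8, 101 and 50.5. None of its 5 peaks was called. In *Smrt* LKO livers 0 of 49 member peaks were called (background 0%, with 11 of the 49 at an unadjusted p under 0.05 and 0 by DESeq2). The median was -0.61 against 0.01 over all peaks and 47 of the 49 values were below 0. Without WT replicate 3 the median was -0.30 with 38 values below 0, and without LKO replicate 2 it was -1.01 with 48 below 0. *Cyp3a16* had 456, 156 and 759 tags per 10M in *Smrt* WT and 189, 508 and 239 in *Smrt* LKO livers, and *Cyp3a41a* 481, 188 and 626 against 153, 326 and 168. The libraries of each group spread widely and the groups overlapped for both genes. The difference between the *Ncor* and *Smrt* effects gave 0 of 49 calls (background 0.33% higher and 0.0959% lower, and 11 at an unadjusted p under 0.05, edgeR).

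H3K27ac at *Cyp3a16*, *Cyp3a41a*, *Cyp3a41b* and *Cyp3a44* was far higher in WT livers of the *Smrt* line than in WT livers of the *Ncor* line. This comparison was chosen after the data were seen. Of 49 peaks 33 were higher and 0 lower in *Smrt* WT, against 13.1% higher and 9.53% lower over all peaks. At *Cyp3a16*, *Cyp3a41a*, *Cyp3a41b* and *Cyp3a44*, 30 of 31 peaks were called (median log2 fold change 4.70), and at *Cyp3a11*, *Cyp3a13* and *Cyp3a25* 3 of 18, all at *Cyp3a11*. The lines share the same peak set. The 31 peaks held few tags in *Ncor* WT and may have been listed only through the *Smrt* line. That would partly fix their count and median, and was not tested. *Cyp3a41b* summed to 20.4, 19.7 and 20.6 tags per 10M in *Ncor* WT and 898, 437 and 1130 in *Smrt* WT livers, 40.6-fold, *Cyp3a41a* to 13.2, 12.7 and 10.5 and 481, 188 and 626, 35.5-fold, and *Cyp3a16* to 14.6, 16.1 and 15.0 and 456, 156 and 759, 30.1-fold. *Cyp3a44* summed to 27.8, 23.5 and 35.3 against 705, 497 and 668, 21.6-fold. The ranges of the lines did not overlap for any of the 4 genes. In the same peaks the median was 0.30 in *Ncor* LKO and -0.81 in *Smrt* LKO against their own WT, comparisons that share these WT libraries.

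The *Cyp3a44* peak at 11588 bp, over its recurring intron 7 site, had 12.7, 10.1 and 14.1 tags per 10M against 246, 207 and 247 (4.24, SE 0.16, adjusted p = 2.27e-06, edgeR). *Cyp3a16* at 3003 bp had 3.44, 5.27 and 5.59 against 249, 68.0 and 400 (5.62, SE 0.65, adjusted p = 4.34e-04), and *Cyp3a41b* at -51708 had 11.7, 10.1 and 9.17 against 559, 288 and 691 (5.64, SE 0.34, adjusted p = 1.48e-05). *Cyp3a11* summed to 1390, 1490 and 1730 in *Ncor* WT and 1800, 1980 and 1800 in *Smrt* WT livers, 1.21-fold and without overlap, with 3 of its 7 peaks called higher. The sums of *Cyp3a13* (535 and 534 on average) and *Cyp3a25* (1100 and 1150) overlapped between the lines. The signals of chromosome Y and *Xist* split the libraries the same way, so the line and the sex-linked signal cannot be told apart here. Leaving out each library in turn kept 28 to 33 calls.

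**Figure D4:**
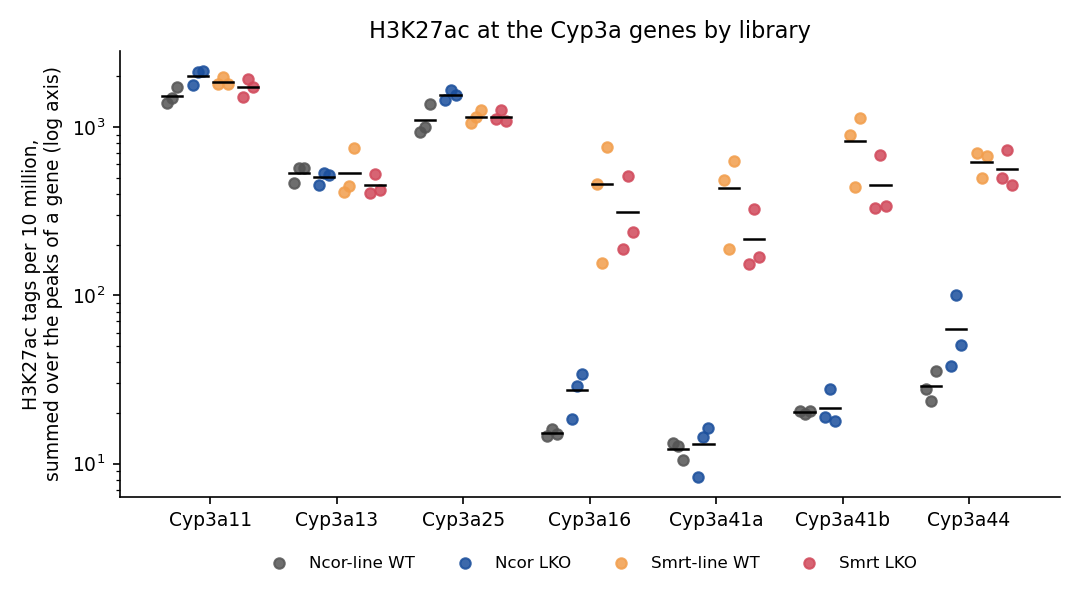
H3K27ac tags per 10M summed over the peaks of each *Cyp3a* member, for each library of 4 groups (*Ncor* WT and LKO, *Smrt* WT and LKO), on a log axis with the group mean as a black line. *Cyp3a16*, *Cyp3a41a*, *Cyp3a41b* and *Cyp3a44* lie far lower in the *Ncor* line than in the *Smrt* line, the WT sums of *Cyp3a13* and *Cyp3a25* overlap, and those of *Cyp3a11* are 1.21-fold higher in the *Smrt* line. Peaks of the *Cyp3a41* pair are summed by the TSS their distance counts from.

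**Figure D5:**
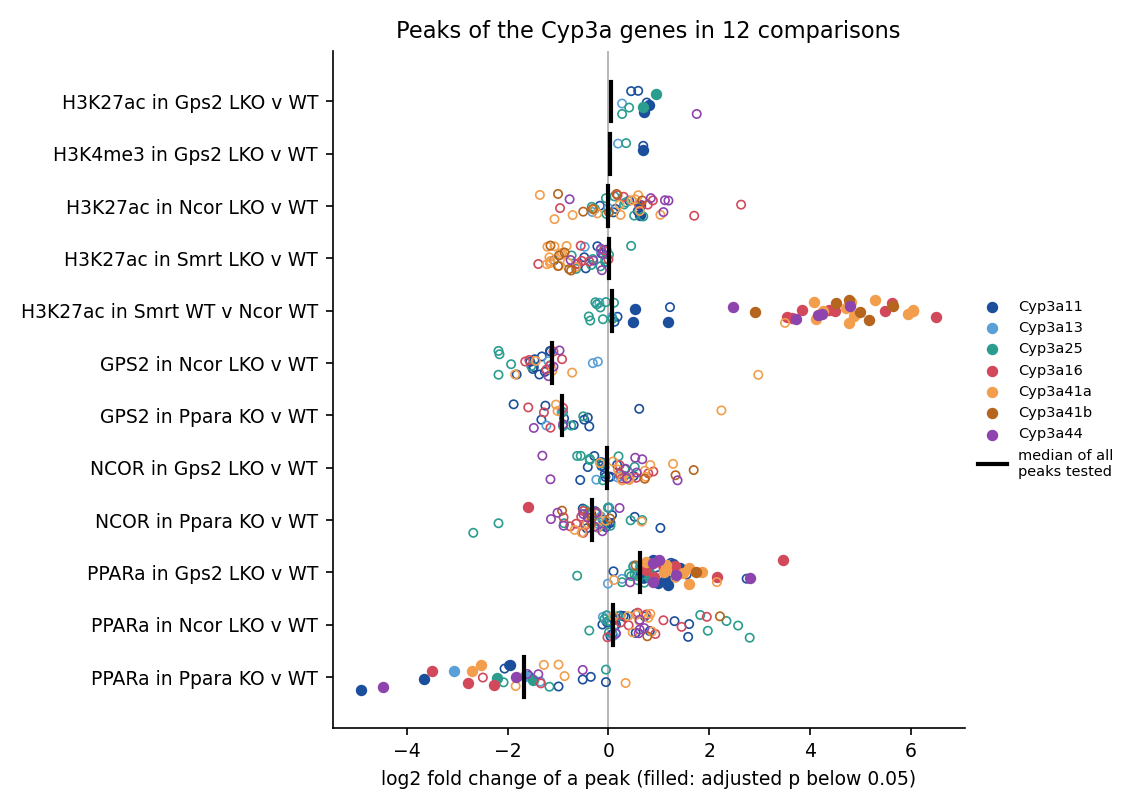
Log2 fold change of every tested *Cyp3a* peak in 12 comparisons, by gene as the tables name it, with filled points at an adjusted p under 0.05 and a black bar at the median of all tested peaks. In H3K27ac of *Smrt* WT against *Ncor* WT the 31 peaks of *Cyp3a16*, *Cyp3a41a*, *Cyp3a41b* and *Cyp3a44* range from 2.47 to 6.49.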

How the data were processed

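The authors deposited raw read counts per gene for RNA-seq, with exon lengths, and raw tag counts per peak for each ChIP-seq table, with library totals in the headers. The RNA-seq coordinates are GRCm38, although the methods name mm9, and the ChIP-seq peaks are mm9. The submitters' processing notes name Bowtie2, HISAT2, HOMER, SAMtools and featureCounts, without versions. The deposited peak lists carry a score of 1 for every peak and served only for positions. Columns of the authors' own fold changes and p-values were not used, nor were the 2 input libraries.

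Groups came from the labels of 74 libraries, 72 of which were used. Genes were tested with the quasi-likelihood test of edgeR 4.0.16 in R 4.3.3 (TMM scaling, filterByExpr), and peaks with the same test at total tags as library size and at least 1 tag. P-values were adjusted over all genes or peaks of a table (Benjamini-Hochberg, threshold 0.05). H3K27ac and H3K4me3 in the Gps2 line were tested at peaks that overlap listed peaks of the mark by 1 bp in at least 2 libraries. Tables with 1 library per group have a log2 ratio with 0.5 tags added, a 2-fold limit and exact 95% Poisson intervals. Intervals and floors (3 tags) cover counting error only. Values at peaks are per 10000000 tags. Alternatives were DESeq2 1.42.0, TMM or total scaling, other filters, a replicate block and leaving out each library. For RNA-seq, a fit with the trend of counts with gene length removed was also run. The scripts were tested on simulated data.

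The named genes and peaks are all 7 members, the peak nearest each TSS, the peak with the most tags and every called peak where these are few, up to 3 genes per list and direction, Nr1i2, Nr1i3, Rxra, Hnf4a and Por, and the 2 genes with the highest correlation among those with a mean of at least 100 normalised counts. The recurring GPS2 sites were chosen after their sequences were seen. The members and lists were chosen with earlier results of these data known.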

Additional observations from a re-analysis of the deposited data

Results flagged for a closer look

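*Cyp3a44* in *Gps2* LKO livers had 1 library apart from the others. LKO replicate 2 had 59.8 normalised counts and the other 3 had 41.4 to 44.5, and its gap to the nearest library was 0.83 of the range of the group, just past the 95% critical value of Dixon's test for 4 samples, which chance exceeds in about 1 of 20 groups. *Cyp3a44* was called with and without this library.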

How the results depend on the processing

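The calls on the *Cyp3a* family depend most on how ChIP-seq libraries are scaled and on single libraries. With TMM scaling, member peaks called were 3 for GPS2 in *Ncor* LKO (0 in the report), 1 for NCOR in *Gps2* LKO (0), 6 for PPARα in *Ncor* LKO (0), 2 for PPARα in *Ppara* KO (14) and 2 for PPARα in *Gps2* LKO (33). With DESeq2 they were 5 for H3K27ac in *Ncor* LKO (2), 10 for GPS2 in *Ncor* LKO, 0 for NCOR in *Ppara* KO (1), 8 for PPARα in *Ppara* KO and 8 for PPARα in *Gps2* LKO. The filter of edgeR gave 3 for GPS2 in *Ncor* LKO, and testing all peaks of the shared table gave 0 for H3K4me3 (1). Scaling to total counts turned the log2 fold change of *Cyp3a11* to -0.14. With the gene length trend removed, *Cyp3a11* was at -0.07 and *Cyp3a25* at -0.14, both without a call. *Cyp3a13* (0.20) and *Cyp3a44* (0.72) stayed called in that fit. The cause was not tested.

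Samples share replicate numbers across groups, with same-numbered correlations of 0.06 to 0.25 for RNA-seq (3 of 4 WT libraries closest to their own number), 0.17 for H3K27ac and 0.20 for H3K4me3 in the *Gps2* line, and -0.06 for PPARα in *Ppara* KO. No table with 3 or more pairs had every pair over 0.1, and with 2 pairs in the tables of H3K27ac and H3K4me3 the values are a hint from the data only, so samples were treated as sharing only a number. A replicate block gave 2 called genes for RNA-seq (2), 6 peaks for H3K27ac in *Gps2* LKO (4), 2 for H3K4me3 (1), 10 for GPS2 in *Ncor* LKO (0), 1 for NCOR in *Gps2* LKO (0) and 0 for PPARα in *Ppara* KO (14). No paired analysis was possible because the 3 WT libraries were summed, for PPARα in *Gps2* LKO.

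Leaving out each library in turn gave 2 to 2 genes for RNA-seq, 0 to 5 peaks for H3K27ac in *Gps2* LKO, 1 to 2 for H3K4me3, 0 to 4 for H3K27ac in *Ncor* LKO, 0 to 0 in *Smrt* LKO, 0 to 1 for the difference between them, 28 to 33 for *Smrt* WT against *Ncor* WT, 0 to 29 for GPS2 in *Ncor* LKO, 0 to 0 in *Ppara* KO, 0 to 0 for NCOR in *Gps2* LKO, 0 to 2 in *Ppara* KO, 24 to 34 for PPARα in *Gps2* LKO, 0 to 1 in *Ncor* LKO and 0 to 9 in *Ppara* KO. Over all alternatives 112 counts of calls stayed within 1.5-fold of the reported value and 34 did not. Counts of 0 that stayed at 0 are among the 112. So is the RNA-seq count with total counts, where 1 member was higher and 2 lower in place of 2 higher. With 2 libraries per group and few tags at *Cyp3a16*, *Cyp3a41a*, *Cyp3a41b* and *Cyp3a44*, small differences at these genes were not detectable.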
